A study of Mus musculus with 11 samples.

Results

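The gene Sfi1 and the Pisd pseudogenes beside it form a stretch of mouse chromosome 11 near one end of the assembled chromosome. Its members are all 500-bp windows on chromosome 11 that the authors listed as differing in captured methylated DNA between day lengths and named after Sfi1, Pisd-ps3 or Pisd-ps2. They number 85 of the 1239 listed windows and lie at 83 distinct positions, since 2 windows are each in 2 lists. Of these 85, the list of the ventral 26 h against 24 h comparison holds 80 of its 217 windows (36.9%). Ventral 22 h against 24 h holds 1 of 812, dorsal 22 h against 24 h holds 2 of 131, and dorsal 26 h against 24 h holds 2 of 79. These counts are not on one scale, because the largest p in the authors' deposited table is 9.94e-06 for ventral 22 h but 9.89e-05 for ventral 26 h, 9.22e-05 for dorsal 22 h and 9.01e-05 for dorsal 26 h. At a deposited p of at most 1e-05 in every list, the members number 1 for ventral 22 h, 63 for ventral 26 h, 0 for dorsal 22 h and 2 for dorsal 26 h. All 812 windows of the ventral 22 h list pass this limit. For the other lists that number was not counted, so no shares are given and these counts are not compared between lists.

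Tissue came from the hypothalamic clock, the suprachiasmatic nucleus (SCN), of which a slice of about 250 µm was cut into ventral and dorsal parts. All mice were wild type, of strain C57BL/6Cr1 and labelled postnatal day 90; from 6 weeks of age their day of light and dark lasted 22, 24 or 26 h, for 6 weeks, followed by 3 days of darkness, and brains were taken at circadian time 4. Methylated DNA, sheared to about 300 bp, was captured and sequenced (MeDIP-seq). The labels give 2 samples for each part at 26 h and at 22 h, 2 for ventral 24 h and 1 for dorsal 24 h, 11 in all, but the deposited lists hold 1 column of values per cycle length.

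Sfi1 encodes a long, repeat-containing protein of the centrosome that binds centrins, small calcium-binding proteins. Pisd encodes phosphatidylserine decarboxylase, the mitochondrial enzyme that makes phosphatidylethanolamine, a major membrane lipid, and its pseudogenes are copies of that gene. In mammalian DNA most methylated cytosines are followed by guanine (CpG), and MeDIP captures a fragment the more readily the more methylated CpG it carries, so a window with few CpG normally gives little signal. RPKM, the unit used below, is the reads of a window scaled to its length and to all reads of the column. It is a level of captured DNA and not a fraction of methylated cytosines, and more methylation per cell cannot be told apart from another mix of cells. How much of a level came from methylated CpG at all was not tested.

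The sequences below are shown because the listed windows of the stretch differ in CpG number and level. CpG-poor windows with low levels make up nearly all members in the ventral 26 h list, and a few CpG-rich windows have high levels. The sequences are the first 300 bases of 4 member windows, read on the plus strand of genome build mm9, with every CG in capitals. For the window over the Sfi1 start site these bases are chr11:3093001-3093300. The start site itself, at 3093466, lies in the same window but past the printed bases, so its label below names the window. The window within Sfi1 with 0 CpG is chr11:3076001-3076300. The window within Sfi1 that is in the lists of ventral 26 h and dorsal 22 h is chr11:3079001-3079300. The window in the pseudogene Gm11400, which lies inside Sfi1, is chr11:3050501-3050800.
Sfi1 start site: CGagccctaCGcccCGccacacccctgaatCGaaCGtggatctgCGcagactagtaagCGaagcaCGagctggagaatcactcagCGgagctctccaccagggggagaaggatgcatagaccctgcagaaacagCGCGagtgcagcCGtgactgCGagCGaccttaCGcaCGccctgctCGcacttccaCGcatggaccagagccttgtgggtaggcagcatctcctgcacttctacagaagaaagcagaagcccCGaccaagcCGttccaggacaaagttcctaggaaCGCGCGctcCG
Within Sfi1, 0 CpG: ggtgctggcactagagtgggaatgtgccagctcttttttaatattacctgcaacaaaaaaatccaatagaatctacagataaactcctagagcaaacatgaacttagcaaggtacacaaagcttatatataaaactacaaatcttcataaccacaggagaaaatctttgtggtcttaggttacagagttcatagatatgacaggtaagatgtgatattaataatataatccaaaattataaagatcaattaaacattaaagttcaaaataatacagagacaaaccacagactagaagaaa
Within Sfi1, in 2 lists: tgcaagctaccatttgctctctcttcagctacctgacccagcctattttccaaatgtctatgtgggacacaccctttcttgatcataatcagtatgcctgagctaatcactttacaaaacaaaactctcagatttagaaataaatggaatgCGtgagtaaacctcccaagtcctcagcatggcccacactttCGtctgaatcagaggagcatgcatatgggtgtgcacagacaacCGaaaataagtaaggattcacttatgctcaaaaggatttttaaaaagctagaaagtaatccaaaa
Gm11400 pseudogene: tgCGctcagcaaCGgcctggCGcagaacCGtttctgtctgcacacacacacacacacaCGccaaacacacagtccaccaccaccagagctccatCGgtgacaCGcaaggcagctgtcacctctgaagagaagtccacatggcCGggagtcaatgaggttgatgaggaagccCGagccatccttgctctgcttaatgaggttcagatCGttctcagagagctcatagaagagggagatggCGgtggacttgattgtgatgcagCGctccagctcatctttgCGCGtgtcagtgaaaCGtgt
The 300 bases hold 24 CG in the start-site window, 0 in the first window within Sfi1, 3 in the second and 15 in the pseudogene window. Those of the first 3 hold no annotated exon. Over their whole 500 bp the start-site and pseudogene windows have 42 and 21 CpG, the highest and the second highest number among the 140 grid windows of the stretch, against a median of 4 over all 237481 windows of chromosome 11.

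The lists rest on shallow columns. The RPKM steps give about 8170000 reads for ventral 22 h, 5230000 for ventral 24 h and 9430000 for ventral 26 h, and about 5720000, 4580000 and 5770000 for the dorsal columns in the same order. Ratios below are of RPKM, the longer or shorter cycle over 24 h, with exact 95% intervals from the reads recovered from RPKM (Clopper-Pearson). They cover counting error only: PCR copies are not told apart, and no spread between mice is visible. The members were chosen by their listing for the difference described here (RPKM columns, deposited fold change and p), so levels and ratios are given as a description, with no test.

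In the ventral SCN, the 80 windows listed for 26 h against 24 h had a median of 11.2 RPKM at 26 h (5.72 to 51.7) and of 3.63 RPKM at 24 h (1.15 to 101.7). RPKM was higher at 26 h in 79 of the 80, where 73.3% of all 217 windows of the list were higher at 26 h, and at least 2-fold higher in 74, where 51.6% of the list were. The median of the ratios was 2.94, with the middle 50% of windows between 2.39 and 3.93, against a median of 1.996 over the whole list and 1.26 over its other 137 windows. Summed over the members, 4479 reads at 26 h (exact Poisson 95% interval 4349 to 4612) stood against 1081 at 24 h (1018 to 1147), a ratio of 2.30 (2.15 to 2.46). One window carries 266 of the 1081 reads at 24 h, and without it the ratio was 2.88 (2.67 to 3.11). The authors' deposited table gives a log2 fold change of 24 h over 26 h, the other way round, with a median of -2.12 for the members and -1.66 for its whole list.

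The other listed windows of the ventral 26 h comparison had higher levels, with a median of 43.5 RPKM at 26 h and of 29.4 RPKM at 24 h, and 80 of the 137 were higher at 26 h. Of the members, 75 of 80 (93.8%) were mostly unique, meaning that at least 50% of their 31-base words occur once in the genome, against 41 of the 121 other windows of the list outside the mitochondrial genome (33.9%). The 60 unlisted windows of the stretch were like the members, with 55 mostly unique (91.7%). The trait is thus that of the stretch and not of its listed windows alone. With 50-base words, 79 of the 80 members and 59 of the 121 other windows were mostly unique. When at least 90% of 31-base words had to occur once, 48 members and 10 of the other windows passed. A mostly unique window can still have a copy elsewhere at lower identity. These differences were not tested.

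**Figure D1:**
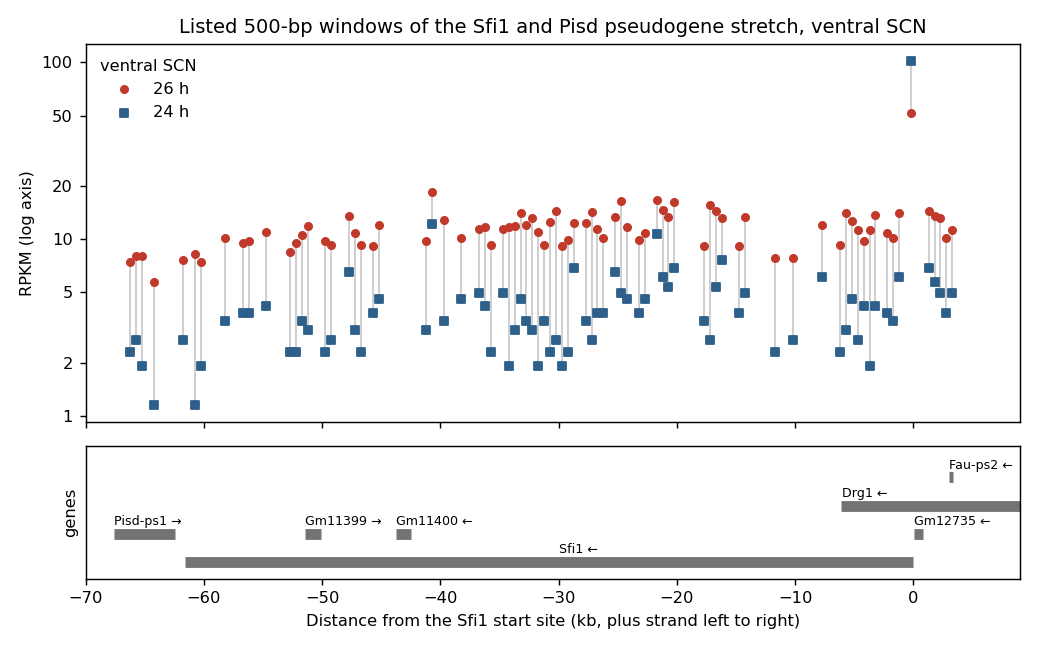
RPKM (log axis) of the 80 listed windows of the ventral 26 h against 24 h comparison, by distance in kb of the window's centre from the Sfi1 start site, with GENCODE M1 genes drawn below (arrows give the strand; Drg1 runs on past the right edge). Red circles are the 26 h column and blue squares the 24 h column; the window at the Sfi1 start site, with 51.7 against 101.7 RPKM, is the one place where the square lies above the circle.

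The listed windows were spread over the whole stretch rather than gathered at one site. They run from 3027001 to 3097000, 70 kb, and fill 80 of its 140 grid windows (57.1%). Of the other 60, 57 are in no list and were not analysed here, and 3 are in another list, so the levels between the listed windows are mostly not known. One of the 3, the Gm11400 window at 3050501, had 54.7 RPKM in the ventral 24 h column, above all listed windows but that of the Sfi1 start. Listed windows form 29 runs of adjoining windows, of which 10 are single windows and the longest holds 13 windows (6500 bp, from 3058501 to 3065000). The largest gap is 3500 bp. In successive bins of 10 kb from the Pisd end to the Sfi1 start, the median ratio was 3.23, 3.53, 2.38, 3.97, 2.54, 2.54 and 2.72, over 9, 11, 7, 18, 13, 6 and 16 windows. The bin medians at 26 h were lowest in the first, 8.06 RPKM against 2.29 RPKM at 24 h, and highest in the one that begins at 3067001, 13.4 RPKM against 4.97 RPKM at 24 h. The 2 windows listed next beyond the stretch, named after Eif4enif1, had a median of 11.025 RPKM at 26 h and 3.445 RPKM at 24 h.

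Sfi1, annotated by GENCODE M1 at chr11:3031853-3093466 on the minus strand, gave its name to 51 of the 80 windows. They had a median of 12.1 RPKM at 26 h and 3.82 RPKM at 24 h, and 46 of the 51 were at least 2-fold higher at 26 h. The window at 3076001, shown above with 0 CpG in its first 300 bases and 0 in all 500, had the largest Sfi1 ratio once 1 read was added to each column. It held 15.7 RPKM (74 reads) at 26 h and 2.68 RPKM (7 reads) at 24 h, a ratio of 5.86 (2.71 to 15.1). The authors' deposited table gives it a p of 1.07e-13, the smallest among the members, for a comparison of columns and not of mice. Near the authors' limit stood the window at 3064501, with 12.3 RPKM (58 reads) at 26 h, 6.88 RPKM (18 reads) at 24 h, a ratio of 1.79 (1.04 to 3.22) and a deposited p of 9.89e-05, the largest in the list. Windows just outside that limit are not in the list.

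The Sfi1 start site went the other way. Its window at 3093001 had the highest level of the stretch in the ventral list, 51.7 RPKM (244 reads) at 26 h and 101.7 RPKM (266 reads) at 24 h, a ratio of 0.509 (0.426 to 0.607) with a deposited p of 1.62e-09. The authors' log2 fold change of 24 h over 26 h was 0.74 for it and below 0 for the 79 others. It holds 42 CpG, and no other listed window of the ventral 26 h comparison in the stretch holds more than 9. Across the start site the next listed windows begin at 3094501 and were higher at 26 h again, up to the last at 3096501 with 11.2 RPKM at 26 h and 4.97 RPKM at 24 h (ratio 2.26, 1.22 to 4.52). The 5 windows named Sfi1 that lie outside its transcripts, all beyond the start, had a median ratio of 2.37.

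Pisd-ps3 gave its name to 29 windows, from 3027001 (7.42 RPKM at 26 h, 2.29 RPKM at 24 h) to 3057501 (9.33 RPKM at 26 h, 2.29 RPKM at 24 h). Their median was 9.75 RPKM at 26 h and 3.06 RPKM at 24 h, with all 29 higher at 26 h and 28 at least 2-fold higher. The largest ratio of all members was at 3032501, with 8.27 RPKM (39 reads) at 26 h and 1.15 RPKM (3 reads) at 24 h. With 3 reads at 24 h, its ratio of 7.21 has an interval of 2.29 to 36.5. The smallest ratio among Pisd-ps3 windows, at 3052501, went with the highest level among them: 18.4 RPKM (87 reads) at 26 h and 12.2 RPKM (32 reads) at 24 h, a ratio of 1.51 (0.995 to 2.34). Summed ratios were 2.91 (2.55 to 3.33) for the Pisd-ps3 windows and 2.10 (1.95 to 2.27) for the Sfi1 windows; the sum for Sfi1 includes the start-site window.

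**Figure D2:**
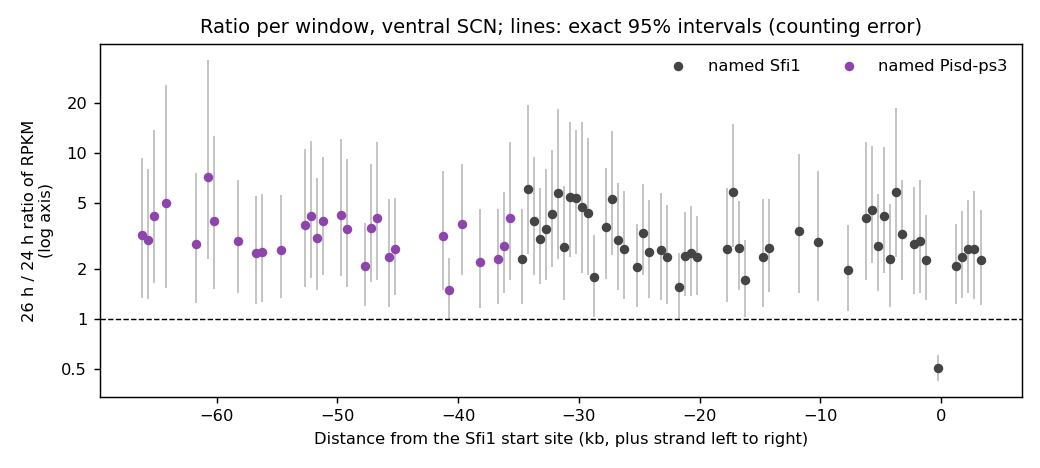
Ratio of RPKM, ventral 26 h over 24 h (log axis), for the 80 listed windows by distance in kb from the Sfi1 start site; grey points are windows named Sfi1, purple points windows named Pisd-ps3, and vertical lines exact 95% intervals for counting error. The dashed line marks equal RPKM: 79 windows lie above it and the start-site window, at 0.509, below.

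The names follow the nearest start site in the authors' annotation and not the gene a window lies in. Of the 29 windows named Pisd-ps3, 25 lie within Sfi1 transcripts and 4 within the pseudogene that GENCODE M1 calls Pisd-ps1 (chr11:3025907-3031007, plus strand). The distances in the authors' tables place the Pisd-ps3 start at 3024029, ahead of that pseudogene. RefSeq lists Pisd-ps1 on chromosome 11 and Pisd-ps3 without a known chromosome, so the name of the pseudogene at this end of the stretch depends on the annotation. In all, 71 of the 80 windows overlap Sfi1, 24 touch a coding exon, 9 another exon and 47 an intron only. The median ratio was 3.27 over coding exons (10.8 RPKM at 26 h, 3.44 RPKM at 24 h), over other exons 3.01 (9.33 RPKM at 26 h, 2.68 RPKM at 24 h) and over introns 2.77 (11.7 RPKM at 26 h, 3.82 RPKM at 24 h). Within 1000 bp of the start of any annotated transcript lay 39 of the 80 listed windows and 24 of the 60 unlisted ones.

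No window of the stretch lies by the Pisd-ps2 start site, although the name occurs there. The window at 3081501 on chromosome 11, with 7.84 RPKM (37 reads) at 26 h, 2.29 RPKM (6 reads) at 24 h and a ratio of 3.42 (1.43 to 9.91), is listed under both Pisd-ps2 and Sfi1. A window with the same start on chromosome 17 is also listed under both names, at the same distances of 2432 and 11715 bp. The first distance fits a start site at 3084182 on chromosome 17, where GENCODE M1 has Pisd-ps2 (chr17:3076578-3084183, minus strand). The second fits the Sfi1 start on chromosome 11, so the names of these windows are crossed, and the chromosome 11 window is counted under Sfi1 here.

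The Pisd end of the stretch is duplicated elsewhere. Of the 80 windows, 14 align to chromosome 5 at Pisd or beyond its end, at a median identity of 93.8% (90.5 to 96.6): 5 overlap the Pisd gene and 9 lie past it, up to 12.1 kb away. Of the 14, 4 align also to the Pisd-ps2 locus on chromosome 17 at a median of 98.0% (at most 99.4). To show how close the copies are, the 180 ungapped bases with the most differences between the window at 3027501 and its counterpart on chromosome 17 are given here, chr11:3027516-3027695 on the plus strand and chr17:3080821-3081000 on the minus strand of mm9. Capitals mark the 6 bases that differ.
Chromosome 11, window at 3027501: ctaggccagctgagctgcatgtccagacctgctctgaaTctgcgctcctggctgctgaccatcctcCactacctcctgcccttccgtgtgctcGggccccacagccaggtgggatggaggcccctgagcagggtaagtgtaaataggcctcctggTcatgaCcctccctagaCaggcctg
Chromosome 17, Pisd-ps2 locus: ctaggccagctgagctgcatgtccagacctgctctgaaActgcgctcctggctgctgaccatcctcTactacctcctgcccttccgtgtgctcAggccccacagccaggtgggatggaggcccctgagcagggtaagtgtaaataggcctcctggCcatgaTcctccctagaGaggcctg
Only such bases tell a read of one locus from a read of the other, and how reads with several possible places were counted is not given in the sources used here, so levels in these windows are uncertain. The chromosome 11 window at 3027501 had 8.06 RPKM at 26 h and 2.68 RPKM at 24 h. The chromosome 17 window at 3080501, which holds most of its counterpart, had 7.0 RPKM (33 reads) at 26 h and 1.53 RPKM (4 reads) at 24 h, a ratio of 4.57 (1.63 to 17.8). The 2 others listed on chromosome 17 had 6.36 RPKM at 26 h against 1.15 RPKM at 24 h (3080001) and 7.84 RPKM at 26 h against 1.91 RPKM at 24 h (3081501). All 3 were higher at 26 h. No window in any of the lists is named after Pisd itself. Names follow the nearest start site, and listed windows were not searched by position within Pisd.

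Levels were also set out by the presence of copies, among windows all listed for their difference. The 65 windows with no other copy, at a minimum of 85% identity over 60% of the window, had a median of 11.7 RPKM at 26 h and 3.82 RPKM at 24 h, with a median ratio of 2.71. The 14 with a copy at or beyond Pisd had 8.38 RPKM at 26 h and 2.49 RPKM at 24 h, with a median ratio of 3.47, and the window at 3059001 has its copy on the X chromosome (94.2% identity). The 4 windows inside the pseudogene Pisd-ps1 had 7.74 RPKM at 26 h and 2.10 RPKM at 24 h, with a median ratio of 3.72. The 14 windows with a copy at or beyond Pisd thus had lower medians in both columns. All of them lie at the Pisd end of the stretch, where the bin medians at 26 h were lowest. The presence of a copy and the position cannot be told apart here.

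The listed windows had few CpG, as the chromosome around them does. They held a median of 4 CpG (0 to 42), the unlisted windows of the stretch 5 (0 to 21), and all windows of chromosome 11 a median of 4 (quartiles 2 and 6). In 5 of the 80 there was no CpG at all, yet these had a median of 14.2 RPKM at 26 h and 2.68 RPKM at 24 h. One of them, at 3041001, has none within 300 bp on either side either, and held 9.54 RPKM at 26 h and 2.29 RPKM at 24 h. This window is among those with a copy on chromosome 5 (92.7% identity). The median ratio was 4.16 for windows with 0 CpG, 2.98 for 1 to 3 (34 windows), 2.77 for 4 to 6 (30 windows) and 2.60 for 7 to 9 (10 windows), with 0.509 for the single window above that.

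Across the 80 windows, the level did not follow CpG number in rank. Spearman's rho between CpG and the level was -0.04 at 26 h and 0.23 at 24 h, and that between CpG and the log2 ratio (1 read added to each column) was -0.34, or -0.31 without the start-site window. Pearson's r between CpG and the level was 0.77 at 26 h and 0.89 at 24 h, and fell to -0.06 at 26 h and 0.23 at 24 h without that window, so it rests on it. These values have no p, since windows share their columns and neighbouring windows can share fragments, and since the windows were listed for their difference. Levels at 26 h and at 24 h ranked windows alike (rho 0.65, or 0.64 without the start site).

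**Figure D3:**
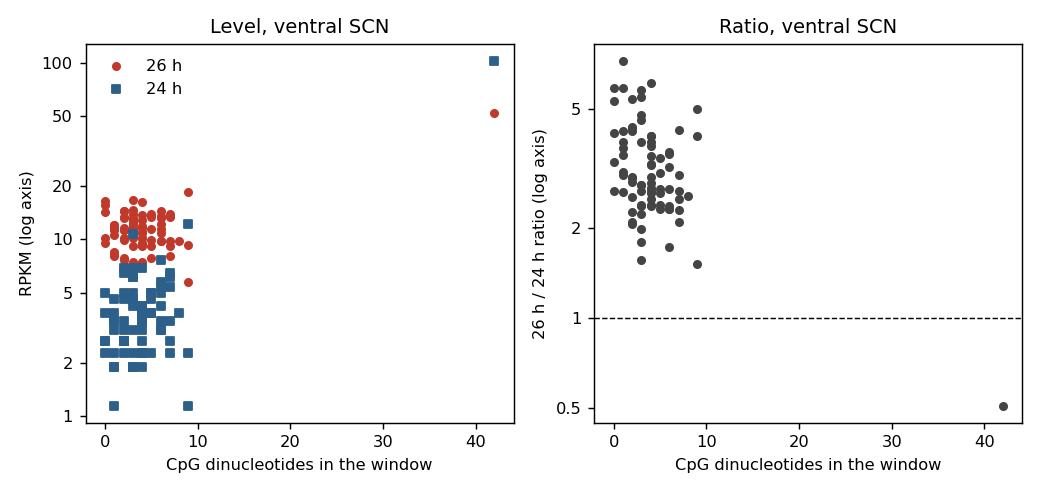
CpG dinucleotides per 500-bp window against RPKM (left, log axis; red circles 26 h, blue squares 24 h) and against the ratio of 26 h over 24 h (right, log axis) for the 80 listed ventral windows. The start-site window with 42 CpG stands apart from all others, which have 0 to 9 CpG, 5.72 to 18.4 RPKM at 26 h and 1.15 to 12.2 RPKM at 24 h.

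In the dorsal SCN, 4 windows of the stretch were listed. For 26 h against 24 h both lie at the Sfi1 start and were higher at 26 h, where 78.5% of that list were; neither was at least 2-fold higher, where 68.4% of the list were. The start-site window at 3093001 had 108.5 RPKM (313 reads) at 26 h and 82.9 RPKM (190 reads) at 24 h, a ratio of 1.31 (1.09 to 1.57) with a deposited p of 2.19e-06. Its neighbour at 3093501, in the transcript Gm12735, with 18 CpG, had 71.7 RPKM (207 reads) at 26 h and 48.9 RPKM (112 reads) at 24 h, a ratio of 1.47 (1.16 to 1.86). The start-site window was thus higher at 26 h in the dorsal part and lower at 26 h in the ventral part. Each part has its own 24 h column, and the difference between parts was not tested.

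For dorsal 22 h against 24 h, where 93.1% of that list were higher at 22 h and 84.7% at least 2-fold higher, both windows adjoin within Sfi1, each touching a coding exon. The window at 3079001, shown above, had 7.34 RPKM (21 reads) at 22 h and 1.75 RPKM (4 reads) at 24 h, a ratio of 4.20 (1.42 to 16.8). In the ventral 26 h list the same window had 13.4 RPKM (63 reads) at 26 h and 4.97 RPKM (13 reads) at 24 h, a ratio of 2.69 (1.46 to 5.32). It was thus lower at 24 h in both lists. It was not listed for ventral 22 h or dorsal 26 h, so the parts cannot be compared at 22 h or at 26 h. At 24 h it had 4.97 RPKM in the ventral part and 1.75 RPKM in the dorsal part, a difference that was not tested. The window at 3079501 had 16.8 RPKM (48 reads) at 22 h and 7.86 RPKM (18 reads) at 24 h, a ratio of 2.14 (1.22 to 3.90).

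In the ventral SCN on 22 h cycles a single window was listed, where 75.7% of that list were higher at 22 h. It is the CpG-rich Gm11400 window at 3050501, named Pisd-ps3 and shown above, with 65.9 RPKM (269 reads) at 22 h and 54.7 RPKM (143 reads) at 24 h. Its ratio of 1.20 (0.980 to 1.49) has an interval that includes 1, while the authors' deposited table gives a p of 1.63e-08 and a log2 fold change of 24 h over 22 h of -0.85. Of the 80 windows of the ventral 26 h list, 0 were listed for ventral 22 h, where 4 of the other 137 windows of that list were (2.92%). Unlisted windows carry no value, so their level at 22 h was not analysed here.

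The 3 windows with the most CpG in the stretch, with 42, 21 and 18, are those of the 4 entries with ratios of 0.509, 1.20, 1.31 and 1.47, and they hold the levels above 45 RPKM. The next in CpG number, at 3050001 and 3032001 with 15 and 12 CpG, are in no list. The other 81 entries, with at most 9 CpG, all had at least 1.51 times the RPKM of 24 h on the longer or shorter cycle. A window with few reads needs a larger ratio to reach a given p than a window with many, so listing itself ties low levels to large ratios, and no relation of CpG to the ratio is read from this.

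**Figure D4:**
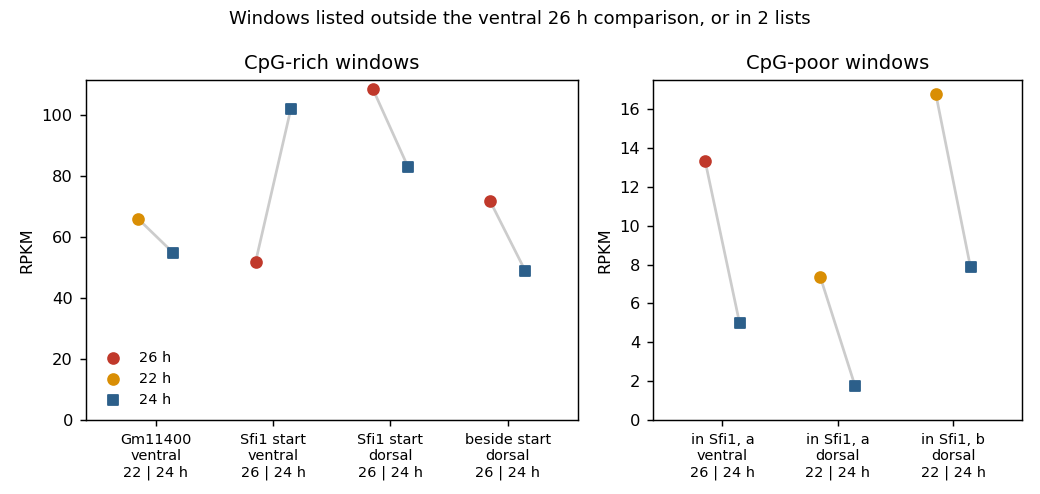
RPKM of the windows that were listed outside the ventral 26 h comparison, with the ventral 26 h values of those also in that list; left panel CpG-rich windows, right panel CpG-poor windows, each axis starting at 0 with its own range. Red circles are 26 h, orange circles 22 h and blue squares 24 h of the same SCN part; the Sfi1 start window is lower at 26 h (51.7 against 101.7 RPKM) in the ventral part and higher (108.5 against 82.9 RPKM) in the dorsal part.

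Among the 22 other genes with at least 2 windows in the ventral 26 h list, the ratio of summed reads closest to that of the members (log2 1.20) was found at Eea1 (log2 1.17, 2 windows), which encodes an early endosome protein, at 1700019M22Rik (log2 1.301, 2 windows) and at Gpm6a (log2 1.07, 4 windows), which encodes a neuronal membrane glycoprotein. Each has few windows, and the likeness is over 1 pair of columns. The order rests on the start-site window: without it, an alternative chosen after seeing the data, the members stood at log2 1.53, and the closest gene was the adjoining Eif4enif1 (log2 1.62, 2 windows). Genes of related function were looked up in 2 lists. Of 20 genes of the centrosome and the centrins, 0 gave their name to a window in any of the 4 lists. These lists name 64 genes for ventral 26 h, 639 for ventral 22 h, 59 for dorsal 26 h and 87 for dorsal 22 h. Of 10 phosphatidylserine and phosphatidylethanolamine genes, Pisd and the pseudogene Pisd-ps1 included, 0 gave their name to a window either. Both lookups matched the authors' names and not positions. By position, 4 members of the ventral 26 h list lie within Pisd-ps1, under the name Pisd-ps3. The share of all genes with a listed window was not computed, so nothing is read from either 0.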

How the data were processed

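MeDIP reads were aligned with BWA to mm9, per the submitters' processing notes, which give no BWA version. The authors deposited 4 lists of 500-bp windows; how duplicate samples were combined and windows chosen is not given in the sources used here. The deposited columns headed counts hold a score, not whole reads, and were not used; 8 columns of RPKM means were not used either. The RPKM values were made by the authors per column. The authors' log2 fold change (24 h over the other cycle) and unadjusted p-value come from edgeR, per the file headers, and compare columns.

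Reads were recovered from the RPKM steps; 100.0% of values were whole multiples of 1 read's worth within 0.01 RPKM. Each start counted once per list. Sequence and genes came from mm9 and GENCODE M1. Copies were sought with BLAST 2.17.0, and 31-base words were counted over the genome; the word count was tested on simulated sequence. Named windows were, per gene and list, those with the most reads, the extreme ratios, the first and last position, the reverse direction and the extreme p. Members, gene lists and settings were chosen with earlier results of these data known. Replicates are not visible, so no test was run. Alternatives were stricter p limits, other word lengths, promoter widths, scalings and subsets of windows. Tools were scipy 1.17.1, pandas 2.3.3, numpy 2.4.6, numba 0.67.0 and matplotlib 3.10.9 under Python 3.11.15.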

Additional observations from a re-analysis of the deposited data

Results flagged for a closer look

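The window at the Sfi1 start site, 3093001 to 3093500, moved in opposite directions between the parts of the SCN. The ratio of 26 h over 24 h was 0.509 in the ventral part, at 51.7 RPKM at 26 h and 101.7 RPKM at 24 h, and 1.31 in the dorsal part, at 108.5 RPKM at 26 h and 82.9 RPKM at 24 h. What drew attention to it is that the only column pair of each part moved the opposite way; the difference between parts was not tested.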

How the results depend on the processing

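Of 30 alternative values, 18 are counts without a direction, and none of the other 12 reversed. Most of these 12 are ratios or directions of windows listed for this very difference. They could hardly reverse, so nothing is read from it. The count of members depends on the p limit and on naming. At a deposited p of at most 1e-06, 41 ventral 26 h members were left of 80, and 0 each for dorsal 22 h and dorsal 26 h (dorsal 22 h had 0 at 1e-05 too). The share of each whole list left at 1e-06 was not computed. Counting only windows that overlap a transcript of the gene they are named after gave 46 for ventral 26 h, 0 for ventral 22 h and 1 for dorsal 26 h. As a median over windows, the ventral ratio was 4.35 in the authors' scaling, 2.94 from RPKM and 2.67 from RPKM with 1 read added. The summed ventral ratio was 2.30. It was 2.10 for Sfi1 alone, 2.91 for Pisd-ps3 alone and 3.42 for the single Pisd-ps2 window. Without the 5 windows with the most reads it was 3.00. Added after seeing the data, it was 2.88 without the start-site window and 2.17 for windows with no other copy. For windows with no other copy and without the start-site window it was 2.79. It stayed at 2.27 in mostly unique windows. With at least 90% of words unique, 48 windows counted as mostly unique; within 500 bp of a start lay 25; joining gaps up to 1000 bp left 8 runs. Listed minus unlisted median CpG was -1, and -2 in mostly unique windows.

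No paired analysis was possible because each cycle length has 1 column, so replicate numbers in the labels do not reach the values; for the same reason no replicate was left out in turn. The windows had a median of 53 reads at 26 h but 9.5 at 24 h, which sets the width of their intervals.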
